A study of Mus musculus with 4 samples.

Results

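The 9 genes described here, Otx2, Fgf5, Pou3f1, Sox3, Zic2, Cldn6, Foxd3, Sall2 and Utf1, are transcribed in the epiblast of the early mouse embryo and were followed across 4 mouse embryonic stem (ES) cell lines. They were taken as a named set of formative and primed epiblast genes, and each was read from every probe outside the array's controls whose RefSeq transcript accession maps to it. Each of the 9 genes had 1 probe with 1 spot, so they account for 9 of 55681 probes and 9 of 20280 genes named on the array. Otx2, Zic2 and Sall2 lie on chromosome 14, Pou3f1 and Foxd3 on 4, Fgf5 on 5, Utf1 on 7, Cldn6 on 17 and Sox3 on X. The lines were parental ES (EB3), HoxA9-Ct ES and a pair of Nup98-HoxA9 ES clones, #1 and #9, with 1 array per line. All derive from EB3, grew on gelatin with leukemia inhibitory factor (LIF), and, apart from parental ES, are single colonies picked under hygromycin B after Tol2 transposition. Nup98-HoxA9 joins the N-terminal part of human Nup98, a nucleoporin rich in FG repeats, to the C-terminal part of HoxA9 that carries the homeodomain, and is FLAG-tagged in these clones. HoxA9-Ct is the C-terminal part alone, FLAG-tagged as well, and serves as the control construct. With 1 HoxA9-Ct clone, an effect of the clone and one of the construct cannot be told apart. Only the Nup98-HoxA9 lines are replicated, so every p-value rests on the spread between these 2 clones over all probes.

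Mouse ES cells kept with LIF resemble the naive epiblast of the blastocyst. On the way to gastrulation, naive cells pass through a formative and then a primed state, in which Otx2 and Oct4 occupy new enhancers, Fgf5 is switched on, and genes such as Klf4 and Zfp42 are shut off, while the core factors Oct4 and Sox2 stay on. FGF signalling through ERK and repression of naive genes by Tcf7l1 drive that passage. The comparisons ask whether genes of the formative and primed epiblast differed in level between lines with and without the fusion.

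Levels are given as log2 of the processed signal relative to the 75th percentile of the array, so that 0 is the 75th percentile, and ratios are differences of these levels on the same scale. On each array 49.9% to 53.0% of spots carried the flag for signal well above background, no spot was saturated, and all 4 arrays lay on 1 slide and in 1 scan. Of the 9 genes, 8 were well above background on all 4 arrays (bright, for short), and Fgf5 was so in parental ES alone. The lines carried ES cell markers: all 6 core pluripotency genes were well above background in every line, with a summed linear signal of 201 times the 75th percentile in parental ES and 193 in HoxA9-Ct ES, against 177 in clone #1 and 154 in clone #9. The Hoxa9 probe read -4.58 in parental ES and -5.15 in HoxA9-Ct ES, neither well above background, against 0.62 in clone #1 and 0.69 in clone #9. Where it lies relative to the part of HoxA9 in the constructs is not given in the sources used here, so it does not check the HoxA9-Ct label.

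Otx2 is a homeodomain protein of the bicoid class, and promoter windows of the genes with the furthest readings in the clones are shown so that homeodomain-type letters near their starts can be seen. The windows hold the 250 bases before a RefSeq start, 5′ to 3′ on the gene's strand, from RefSeq on GRCm38.p6. Capitals mark TAATTA, the core read by many homeodomains, and TAATCC or its reverse complement GGATTA, the core of bicoid-type homeodomains. Otx2 has 4 windows for its alternative starts, of which the pair with marked letters is printed.
Otx2 start, chr14:48665110-48665359, minus strand: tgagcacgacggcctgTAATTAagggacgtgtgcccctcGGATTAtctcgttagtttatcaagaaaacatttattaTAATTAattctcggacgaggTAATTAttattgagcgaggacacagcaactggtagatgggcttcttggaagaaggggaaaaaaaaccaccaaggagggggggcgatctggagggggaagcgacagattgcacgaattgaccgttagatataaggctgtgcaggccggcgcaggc
Otx2 start, chr14:48667645-48667894, minus strand: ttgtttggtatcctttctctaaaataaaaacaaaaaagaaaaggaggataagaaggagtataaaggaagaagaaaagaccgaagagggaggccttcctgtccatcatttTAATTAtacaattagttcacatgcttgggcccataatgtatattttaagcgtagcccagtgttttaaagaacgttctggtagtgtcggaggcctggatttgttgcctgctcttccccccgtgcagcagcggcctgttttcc
Fgf5 start, chr5:98253934-98254183, plus strand: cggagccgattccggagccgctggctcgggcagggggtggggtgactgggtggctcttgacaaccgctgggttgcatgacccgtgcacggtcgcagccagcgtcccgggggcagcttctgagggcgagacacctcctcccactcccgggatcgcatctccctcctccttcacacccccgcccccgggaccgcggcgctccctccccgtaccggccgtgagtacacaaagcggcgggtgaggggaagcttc
Cldn6 start, chr17:23679115-23679364, plus strand: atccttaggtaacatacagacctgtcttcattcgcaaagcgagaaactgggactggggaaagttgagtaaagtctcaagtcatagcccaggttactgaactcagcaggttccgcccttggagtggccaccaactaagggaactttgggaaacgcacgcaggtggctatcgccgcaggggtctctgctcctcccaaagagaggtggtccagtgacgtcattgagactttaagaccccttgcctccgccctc
The first Otx2 window held TAATTA beginning 234, 174 and 154 bases before the start and GGATTA 211 bases before it, and the other Otx2 window held TAATTA 141 bases before its start. TAATTA, which is its own reverse complement, was present in 2 of 10 windows of 6 of the genes, both of them Otx2 windows, and in 4.84% of 32851 windows of all genes. TAATCC or GGATTA was present in 1 of the 10 windows and in 6.25% of all windows. The octamer ATGCAAAT, the core of POU factor sites, was searched on both strands and was in 0 of the 10 windows and 1.60% of all, and the E-box CACGTG was in 1, that of Foxd3 at 217 bases before the start, and in 6.02% of all. No marked motif overlapped another. These are letters in a window and were chosen after the sequences had been seen.

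Otx2 had the lowest adjusted p of the 9 genes in the comparisons of the Nup98-HoxA9 clones. This transcription factor redirects Oct4 to enhancers as cells leave the naive state, and is needed later for the anterior neural plate. Its probe read 3.84 in parental ES and 4.50 in HoxA9-Ct ES, against 2.47 in clone #1 and 1.34 in clone #9. Both Nup98-HoxA9 clones lay below both other lines, and HoxA9-Ct ES lay above parental ES. The linear processed signals behind these levels were 3273 in parental ES and 4731 in HoxA9-Ct ES, and 1228 and 639 in the clones.

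Relative to parental ES, Otx2 was 2.58-fold lower in clone #1 and 5.66-fold lower in clone #9. The mean of the clones differed from parental ES by -1.94 on the log2 scale (SE 0.56, 95% interval -3.03 to -0.84), a 3.82-fold lower level, and passed the test (limma, Benjamini-Hochberg adjusted p = 0.0391). That SE is the same for every probe, from a shared SD of 0.454. In Otx2 itself the clones differed from each other by an SD of 0.80. Against HoxA9-Ct ES the mean of the clones differed by -2.60 (95% interval -3.69 to -1.51), a 6.06-fold lower level (limma, Benjamini-Hochberg adjusted p = 0.000642). HoxA9-Ct ES itself was 1.58-fold above parental ES, a log2 ratio of 0.66 with a 95% interval of -0.59 to 1.92, which does not pass the test (limma, Benjamini-Hochberg adjusted p = 1.00). The call against parental ES was lost with quantile normalization (adjusted p = 0.672), with a filter on dim probes (0.681) and with outlier spots kept (0.074), although the log2 difference stayed between -1.87 and -1.94. With quantile normalization and with the filter, the call against HoxA9-Ct ES was lost as well.

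The clones were not alike in Otx2. Clone #1 read 2.19-fold above clone #9, a log2 difference of -1.13 for clone #9 minus clone #1, against a median absolute difference of 0.20 and a 95th percentile of 0.86 over the 25529 bright probes. Of those probes, 0.830% had a lower ratio to parental ES than Otx2 in clone #1 and 0.133% in clone #9, whereas 97.6% had a lower ratio in HoxA9-Ct ES. The Otx2 spot sits in row 338 of 384, and the bright probes of the last eighth of rows, 3040 in all, had median ratios of -0.03 and -0.12 in the clones and -0.01 in HoxA9-Ct ES.

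**Figure D1:**
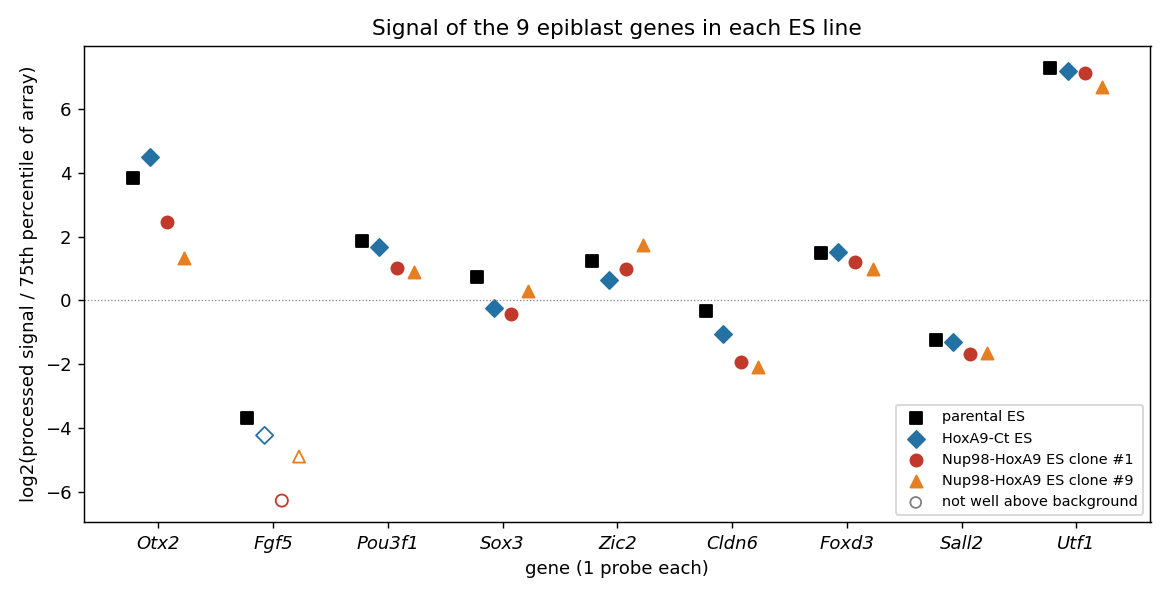
Level of the 9 epiblast genes in each ES line, as log2 of the processed signal over the 75th percentile of the array, with 1 point per line (1 array each) and open symbols where the probe was not well above background. Otx2 runs from 4.50 in HoxA9-Ct ES down to 1.34 in clone #9, while the Utf1 points lie between 6.70 and 7.30.

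Fgf5 encodes a secreted fibroblast growth factor and is the customary marker of the primed epiblast. Its probe gave a level of -3.69 in parental ES and -4.24 in HoxA9-Ct ES, against -6.28 in clone #1 and -4.90 in clone #9. Only the parental reading was well above background, as 17.7 units of processed signal, against 11.1 in HoxA9-Ct ES and 2.85 and 8.47 in the clones. The lowest level called well above background was -4.28 in parental ES and -4.23 in HoxA9-Ct ES, and -4.43 and -4.62 on the arrays of the clones. Against these limits, or the probe's own signal where higher, Fgf5 was at least 1.77-fold higher in parental ES than in the mean of the clones and at least 1.45-fold higher than in HoxA9-Ct ES. The fitted difference of the clones from parental ES passed the test narrowly (limma, Benjamini-Hochberg adjusted p = 0.0471), and the call was lost under 7 of 8 alternative settings, with adjusted p from 0.051 with scaling to the median of each array to 1.00 with normexp background correction. Differences among the 3 lines below background have no order.

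Pou3f1, also known as Oct6, is a POU factor that opens the neural programme in the late epiblast. Its level was 1.87 in parental ES and 1.69 in HoxA9-Ct ES, against 1.03 in clone #1 and 0.89 in clone #9. Both clones lay below both other lines, at 1.79-fold and 1.97-fold under parental ES, and differed from each other by an SD of 0.10. The mean of the clones was -0.91 from parental ES with a 95% interval of -2.00 to 0.18, which does not pass the test (limma, Benjamini-Hochberg adjusted p = 1.00). It passed with normexp background correction (adjusted p = 0.035) and with trend and robust variance estimation combined (0.028).

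Cldn6, a tight junction claudin of the embryonic epithelium, gave -0.33 in parental ES and -1.05 in HoxA9-Ct ES, against -1.94 in clone #1 and -2.10 in clone #9. The clones were close to each other, with an SD of 0.12, and both lay below HoxA9-Ct ES, which in turn read below parental ES. The clones were 3.04-fold and 3.40-fold under parental ES and HoxA9-Ct ES 1.64-fold. The mean difference of the clones from parental ES, -1.68 (95% interval -2.77 to -0.59), does not pass the test (limma, Benjamini-Hochberg adjusted p = 0.125). It passed under 3 alternatives, with adjusted p of 0.003 with normexp background correction, 0.001 with dim signals raised to the lowest level above background, and 0.00042 with trend and robust variance estimation combined. Against HoxA9-Ct ES the difference was -0.97 (limma, Benjamini-Hochberg adjusted p = 0.977).

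Sox3 and Zic2 did not separate the clones from the other lines. Sox3, a SoxB1 factor close to Sox2 that is kept on in the neural ectoderm, read 0.73 in parental ES and -0.23 in HoxA9-Ct ES, against -0.42 in clone #1 and 0.30 in clone #9. Parental ES was highest, and HoxA9-Ct ES lay between the clones. Zic2, a zinc finger protein that holds enhancers ready in ES cells and the epiblast, read 1.23 in parental ES and 0.63 in HoxA9-Ct ES, against 0.99 in clone #1 and 1.73 in clone #9. Clone #9 was above parental ES by 0.50 and clone #1 was at -0.24 from it, so the clones lay on opposite sides of the parental line. Mean differences of the clones from parental ES were -0.79 for Sox3 and 0.13 for Zic2, both with limma, Benjamini-Hochberg adjusted p = 1.00.

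Foxd3, Sall2 and Utf1 varied least. Foxd3, a forkhead factor that primes epiblast enhancers and is required to maintain the pluripotent epiblast, read 1.49 in parental ES and 1.52 in HoxA9-Ct ES, against 1.20 in clone #1 and 0.98 in clone #9. Sall2, a spalt-type zinc finger protein, read -1.25 and -1.31 in parental ES and HoxA9-Ct ES, and -1.67 in each clone. Utf1, a chromatin protein of pluripotent cells that is turned off on differentiation, read 7.30 and 7.19 in parental ES and HoxA9-Ct ES, and 7.14 and 6.70 in clones #1 and #9. In all 3 genes both clones lay under both other lines, by ratios to parental ES of -0.17 to -0.60, and none passed the test (limma, Benjamini-Hochberg adjusted p = 1.00 for each). The Foxd3 ratio of HoxA9-Ct ES to parental ES, 0.03, turned to -0.035 with scaling to the median of each array.

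Pooled over the 8 bright genes, the clones differed from each other by an SD of 0.40. Among these 8 genes the differences of the clones from parental ES and from HoxA9-Ct ES passed the test for Otx2 alone, and 0 of the 9 genes passed between HoxA9-Ct ES and parental ES. For the other genes the order of the lines is that of single arrays, and no neighbours in it were shown to differ.

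**Figure D2:**
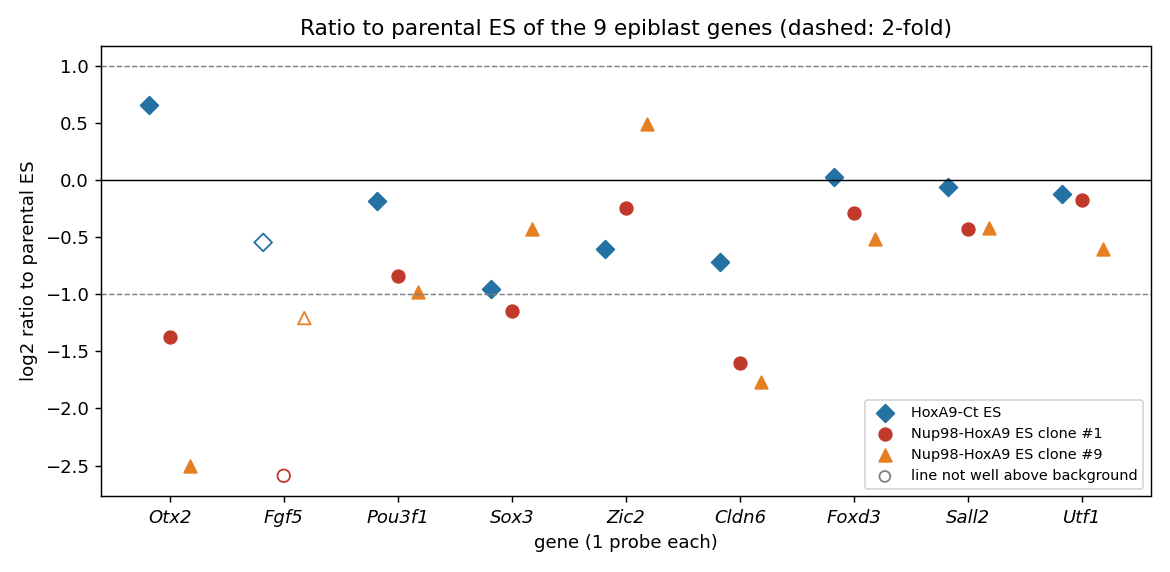
Log2 ratio of each line to parental ES for the 9 genes, 1 point per line, with the dashed lines at a 2-fold difference and open symbols where the line was not well above background. Otx2, Cldn6 and Fgf5, the last with open symbols, lie under the lower dashed line in both Nup98-HoxA9 clones. Zic2 is the gene with clone #9 above 0.

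Counted over the 9 genes, 2 (Otx2 and Fgf5) were called lower in the Nup98-HoxA9 clones than in parental ES and 0 higher by limma, where 0.625% of all 55562 probes tested were called lower and 0.781% higher. For Fgf5 both clones were below background, so of these 2 only Otx2 was called on signal well above background in every line. At an unadjusted p under 0.05 there were 3 of the 9 genes, beside 6.26% of all probes in either direction. Against HoxA9-Ct ES, 1 gene (Otx2) was called lower in the clones and 0 higher by limma, beside 0.688% and 0.673% of all probes, with 2 at an unadjusted p under 0.05, where 6.55% of all probes were. Between HoxA9-Ct ES and parental ES limma called 0 genes in either direction, beside 0.189% of probes called lower and 0.216% higher. At an unadjusted p under 0.05 there were 0 of the 9 genes and 3.51% of all probes.

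By size alone, 3 of the 9 genes (Otx2, Fgf5 and Cldn6) read over 2-fold lower than parental ES in both clones and 0 over 2-fold higher, where 2.09% and 1.88% of all probes did. For Fgf5 the clones were below background, and its bound is under 2-fold. In HoxA9-Ct ES 0 of the 9 genes passed 2-fold in either direction, beside 2.43% of probes lower and 3.64% higher. Of the 9 genes, 8 read lower than parental ES in both clones, against 55.6% of all probes and 44.5% of the 25529 bright ones. Both clones lay below both other lines for 7 genes, against 47.2% of all probes and 32.3% of the bright ones. The 8 and the 7 both include Fgf5, which was not bright. Its place among the 7 has no meaning, because HoxA9-Ct ES and both clones were below background.

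The median ratio of the 9 genes to parental ES was -0.84 and -0.60 in clones #1 and #9 and -0.18 in HoxA9-Ct ES. The same medians over all 55562 probes were -0.10, -0.27 and 0.06, and over those bright on every array -0.03, -0.12 and 0.00. The clone ratios share the parental array, so the clones' ratios are not independent of each other.

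**Figure D3:**
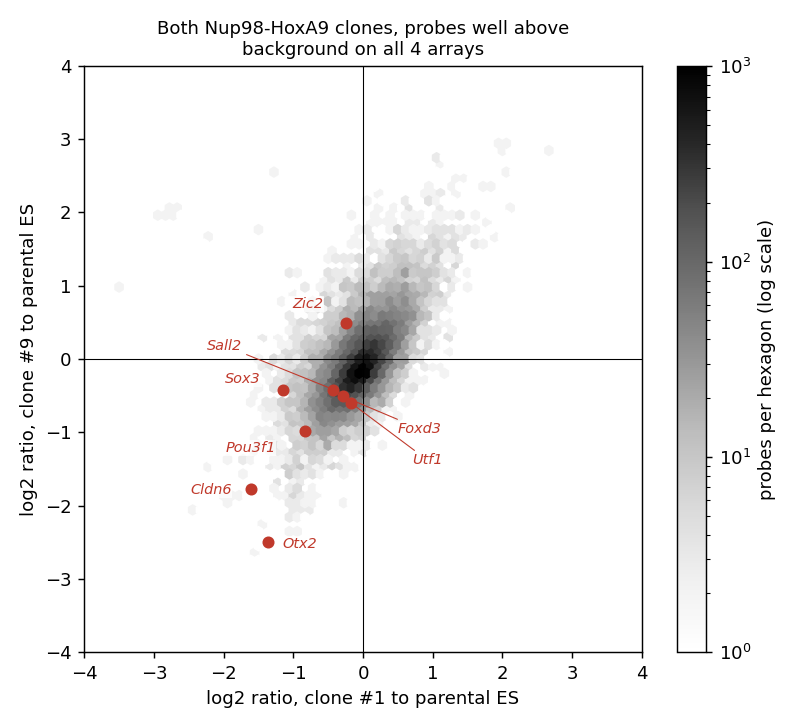
Log2 ratio to parental ES in clone #1 (horizontal) against clone #9 (vertical) for the 25529 bright probes, as grey hexagons shaded by the number of probes on a log scale, with the 8 epiblast genes among them in red. Otx2 lies at -1.37 and -2.50 and Cldn6 at -1.60 and -1.77, and 22 probes fall outside the axes.

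Otx2 is the gene whose pattern over the lines was compared with other genes. Taking each gene's 4 levels less their mean, the largest difference from Otx2 in any line was smallest for Nkx6-3, at 0.15, among 12550 genes well above background on all arrays. Nkx6-3, a homeobox gene, had ratios to parental ES of -1.11 and -2.40 in clones #1 and #9 and 0.92 in HoxA9-Ct ES. Mageb16 (largest difference 0.46; ratios -0.96, -1.88 and 0.40) and Ttc29 (0.51; -1.22, -1.86 and 0.39) came next.

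Other genes of the formative and primed epiblast were read from a list of 17, of which 15 were well above background on all 4 arrays. In the Nup98-HoxA9 clones 3 of the 17 were called lower than in parental ES by limma and 0 higher, beside 0.625% and 0.781% of all probes. Like the lists below, this one was chosen with earlier results of these data known. With quantile normalization and with the filter on dim probes, 0 of all probes were called in any of the 3 comparisons. Every call of a list gene given here and below was therefore lost under those settings. The median ratio of the list was -0.77 and -0.41 in clones #1 and #9 and -0.11 in HoxA9-Ct ES. Of the 15 bright genes, 11 read lower than parental ES in both clones, against 44.5% of all bright probes.

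Lef1, a nuclear partner of beta-catenin in Wnt signalling, fell (limma, Benjamini-Hochberg adjusted p = 1.06e-07 for the clones). Its ratio to parental ES was -4.26 in clone #1 and -2.83 in clone #9, beside -1.84 in HoxA9-Ct ES. In clone #1 it was not well above background, at -5.15 where that array's limit was -4.43. The size of the fall in clone #1 is therefore not known, and the p-value uses that dim reading. Grhl2, a grainyhead factor that opens epithelial enhancers in the epiblast, fell by ratios of -2.43 and -3.14 in the clones and read -0.92 in HoxA9-Ct ES (adjusted p = 0.000139 by limma for the clones). Fgf15, an endocrine fibroblast growth factor, fell by ratios of -2.39 and -2.06 and read -0.84 in HoxA9-Ct ES (adjusted p = 0.00754 by limma for the clones). In these 3 genes HoxA9-Ct ES lay between parental ES and the clones, and the clones did not pass the test against HoxA9-Ct ES (limma, Benjamini-Hochberg adjusted p = 0.11 for Lef1, 0.0551 for Grhl2 and 0.342 for Fgf15). The list's genes with the highest signal did not pass: the de novo DNA methyltransferase Dnmt3b was at -0.47 and -0.69 in clones #1 and #9 and 0.09 in HoxA9-Ct ES, its cofactor Dnmt3l at -0.78, -0.33 and 0.61, and Tcf15, a basic helix-loop-helix factor of cells about to leave the naive state, at 0.34, -0.09 and -0.46.

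Paralogues of the 9 genes were read from a list of 22, of which 11 were bright on all 4 arrays and 9 passed the background flag on no array. By limma, 0 of them were called in any of the 3 comparisons, with 1 in each at an unadjusted p under 0.05. Of all probes, 6.26% were so for the clones against parental ES, 3.51% for HoxA9-Ct ES against parental ES and 6.55% for the clones against HoxA9-Ct ES. By size alone, 1 of the 22 read over 2-fold lower than parental ES in both clones and 0 over 2-fold higher, where 2.09% and 1.88% of all probes did. That gene was not among the 11 bright ones. Otx1, Crx, Pou3f2, Pou3f3 and Pou3f4 were among those not well above background on any array. Sall4 had ratios to parental ES of -0.29 and -0.30 in clones #1 and #9 and 0.02 in HoxA9-Ct ES, and Fgf4, the main FGF of naive ES cells, had -0.10, -0.06 and -0.15.

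A further list held 17 factors and FGF-ERK genes of the exit from naive pluripotency, all well above background on every array. Of these, 1 was called lower in the clones than in parental ES and 0 higher by limma, beside 0.625% and 0.781% of all probes. That gene was Egr1, an immediate early gene induced by ERK, with ratios of -3.11 and -4.11 in clones #1 and #9 and -0.30 in HoxA9-Ct ES (limma, Benjamini-Hochberg adjusted p = 5.18e-08 against parental ES and 1.25e-06 against HoxA9-Ct ES). The ETS factors Etv5, at -0.22, -0.46 and -0.14, and Etv4, at 0.61, 0.35 and 0.15, did not pass.

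The core and naive pluripotency genes gave 0 calls by limma in the 3 comparisons, and 0 at an unadjusted p under 0.05. All 12 naive genes were well above background in every line, with median ratios of 0.14 and 0.04 in clones #1 and #9 and -0.01 in HoxA9-Ct ES, and their summed signal was 579 times the 75th percentile in parental ES, 612 in each clone and 586 in HoxA9-Ct ES. Esrrb was at 0.09, -0.13 and 0.02, and Zfp42 at -0.06, 0.21 and -0.08. In the core list Pou5f1, which encodes Oct4, was at -0.07, -0.28 and -0.12, Tdgf1 at 0.29, 0.33 and -0.10, and the RNA-binding protein gene Lin28a at -0.78, -1.22 and 0.02.

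Markers of other early cell types were also read, and some of them differed between the lines. Of 7 primitive endoderm markers, 3 (Gata6, Sox17 and Pdgfra) were called higher in the clones than in parental ES by limma and 6 higher than in HoxA9-Ct ES. The shares over all probes were 0.781% and 0.673%. The summed signal of the 7 was 1.13 times the 75th percentile in parental ES and 0.542 in HoxA9-Ct ES, against 3.88 in clone #1 and 4.88 in clone #9, and all were well above background in both clones. Gata6, which specifies primitive endoderm, had ratios to parental ES of 2.23 and 2.53 in the clones and -1.39 in HoxA9-Ct ES (limma, Benjamini-Hochberg adjusted p = 0.00275 for the clones). Sox17 was at 1.89 and 2.14 in the clones and was called lower in HoxA9-Ct ES, where it was not well above background and parental ES was at least 2.70-fold higher (adjusted p = 0.0257 for the clones and 0.00227 for HoxA9-Ct ES by limma, both against parental ES). Pdgfra was not well above background in either other line, and the clones exceeded parental ES by at least 6.48-fold.

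Of 6 trophectoderm markers, 3 (Cdx2, Elf5 and Krt8) were called higher in the clones than in parental ES by limma, and 1 (Elf5) higher than in HoxA9-Ct ES. The shares over all probes were 0.781% and 0.673%. Elf5 was well above background in clone #1 alone. The summed signal of the 6 was 13.3 in parental ES and 11.9 in HoxA9-Ct ES, against 21.7 in clone #1 and 38.6 in clone #9, in the same units. In clone #9 the highest of the 6 was Krt18, at a level of 4.70 against 2.48 in parental ES. Its difference in the clones did not pass the test (limma, Benjamini-Hochberg adjusted p = 0.257). In parental ES the highest was Tfap2c, at a level of 2.84. Tfap2c had ratios to parental ES of 0.47 and 0.18 in clones #1 and #9 and -0.48 in HoxA9-Ct ES, and did not pass. Cdx2, Elf5 and Gata3 were not well above background in parental ES. Krt8, an epithelial keratin, had ratios of 1.94 and 2.90 in clones #1 and #9 and 0.62 in HoxA9-Ct ES (limma, Benjamini-Hochberg adjusted p = 0.0021 for the clones against parental ES and 0.0726 against HoxA9-Ct ES), and its partner Krt18 had 0.75, 2.22 and 0.07. Cdx2, not well above background in parental ES or HoxA9-Ct ES, had at least a 1.82-fold higher level in both clones averaged than in parental ES. Against HoxA9-Ct ES the bound for Cdx2 was 1.67-fold, and the clones did not pass the test. Whether cells of these types took part in the lower Otx2 signal was not tested, and in bulk RNA fewer cells of a type and less RNA per cell cannot be told apart.

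Of 9 neural markers, 2 were called lower in the clones and 0 higher by limma, against parental ES and against HoxA9-Ct ES alike. Over all probes, 0.625% were called lower against parental ES and 0.688% against HoxA9-Ct ES. Pax6, a paired homeodomain factor of the neural plate, was not well above background in either clone and was at least 1.94-fold higher in parental ES (limma, Benjamini-Hochberg adjusted p = 6.46e-05). Neurod1, a proneural factor, was at -1.91 in clone #1, at -4.79 in clone #9, where it was not well above background, and at -1.27 in HoxA9-Ct ES. Its level in clone #9, -6.43, lay under that array's limit of -4.62, so the size of that difference is not known. The early neural gene Sox1, at 0.65 and 0.50 in clones #1 and #9 and 1.01 in HoxA9-Ct ES, Nes at 0.47, 0.13 and -0.29, and Tubb3 at -0.25, 0.22 and 0.50, did not pass. Of 7 primitive streak and mesoderm markers 0 were called by limma. At an unadjusted p under 0.05 against parental ES, 0 of the 7 passed in the clones and 1 in HoxA9-Ct ES, beside 6.26% and 3.51% of all probes. Among the 7, Eomes was at 0.67, 0.02 and 0.46, Kdr at 0.09, -0.26 and 0.25, and Tbx6 at 0.01, 0.00 and -0.29.

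**Figure D4:**
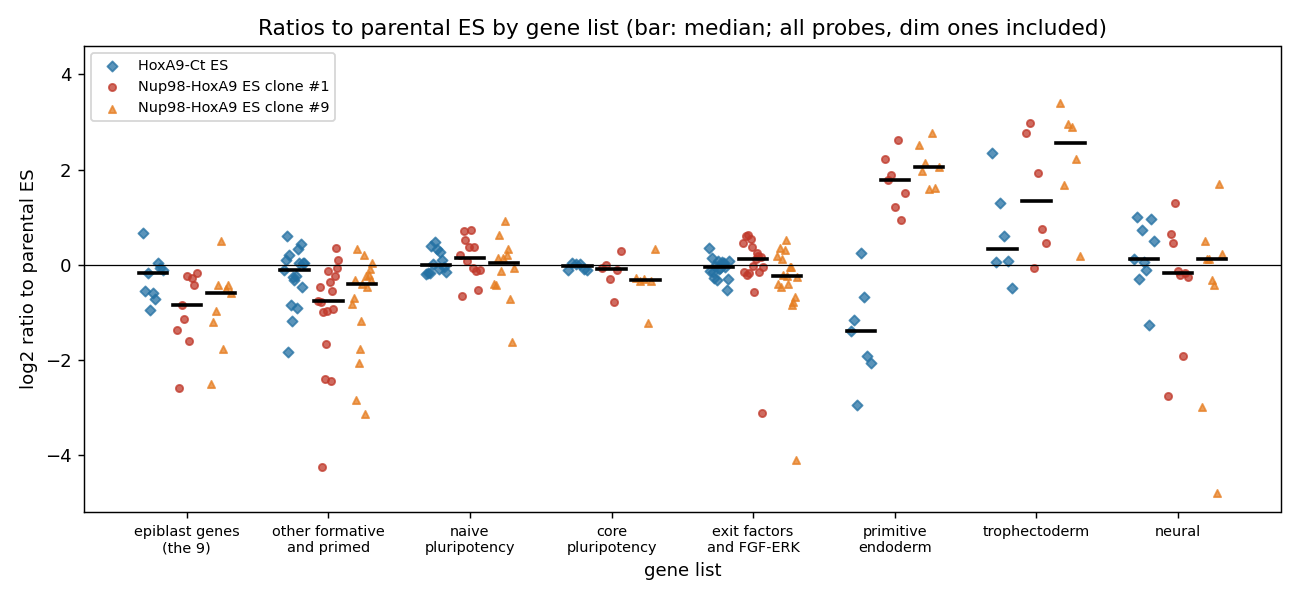
Log2 ratio to parental ES by gene list in HoxA9-Ct ES and each Nup98-HoxA9 clone, with 1 point per gene, dim probes included, and a bar at the median. The medians of the 9 epiblast genes are -0.84 and -0.60 in clones #1 and #9 and -0.18 in HoxA9-Ct ES, those of the naive pluripotency genes 0.14, 0.04 and -0.01.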

How the data were processed

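Expression was measured on one-colour Agilent SurePrint G3 Mouse GE arrays in 4 ES lines, 1 array each. The authors ran Agilent Feature Extraction 10.10.1.1 on the scans and deposited, per array, a spot intensity (processed signal: background subtracted and spatially detrended) with quality flags. The deposited series matrix holds the same intensity times 1 constant per array, to within 0.0155% for brighter spots.

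Control and outlier spots were left out, spots of a probe averaged, and log2 intensity taken relative to the array's 75th percentile. RefSeq accessions named 26756 of 55681 probes through a table whose assembly is GRCm38.p6. The array's own annotation is on mm9 and was not mixed with it: printed coordinates are those of the table's promoter windows. Groups (Nup98-HoxA9 ES 2 arrays, the others 1 each) were set against each other by limma (version 3.58.1, R 4.3.3, with lmFit, eBayes, Benjamini-Hochberg threshold 0.05, 55562 probes with a value on all arrays). With 1 residual degree of freedom the prior degrees of freedom were infinite, with a prior SD of 0.454, so every probe has the same standard error. The number of arrays limits the precision. The median SD between spots of a probe was 0.105 to 0.118 per array over 399 probes with 10 spots. The pair of Nup98-HoxA9 arrays are different clones, and p-values measure only the spread between them. On simulated data of the clones against parental ES (55562 probes, 1 spread), 2, 22, 47 and 50 of 50 changes of 1, 2, 3 and 4 log2 units were recovered, with 7 unchanged probes called, and with a spread following the signal level 0 were recovered.

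A fold against a line not well above background is a lower bound, taken against the higher of that array's limit and the signal the probe itself gave. The genes and lists were chosen with earlier results of these data known. Named genes are the 9 genes, list genes called in any comparison or among the 3 of highest mean signal of their list, and the 3 nearest in pattern to a bright gene of Otx2, Fgf5 and Pou3f1 whose lines span over 1 log2 unit. Some genes that this rule names are not reported here. Otx1, Crx, Pou3f2, Pou3f3 and Pou3f4 were named after their values were seen. The normexp alternative used median spot signals (offset 50), in place of the mean signal. Other alternatives were the median and quantile scaling, a floor, a filter on dim probes, the series matrix, outlier spots, and trend and robust eBayes. Python 3.11.15, numpy 2.4.6 and pandas 2.3.3 made counts and medians.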

Additional observations from a re-analysis of the deposited data

How the results depend on the processing

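The count of epiblast genes called in the Nup98-HoxA9 clones against parental ES, 2, became 1 with scaling to the median of each array (735 of all probes called, against 781), and 0 with quantile normalization (0 of all probes, 5104 at an unadjusted p under 0.05), with probes dim on all 4 arrays filtered out (0 of all, 2224 unadjusted) and with outlier spots kept (709 of all). It was 3 (Otx2, Pou3f1 and Cldn6) with normexp background correction and with trend and robust eBayes. Against HoxA9-Ct ES the count of 1 became 0 with quantile normalization (0 of all probes called, 756 in the main setting, 5394 unadjusted) and with the filter (0 of all, 2136 unadjusted). The count of genes over 2-fold lower in both clones, 3, became 1 with normexp background correction, and was 3 to 4 without either clone. Without either clone, a value with no test, the median ratio of the 9 genes ranged from -0.84 to -0.60 against parental ES and from -0.54 to -0.36 against HoxA9-Ct ES. With normexp background correction these medians were -0.38 and -0.26, against -0.79 and -0.43 in the main setting. Leaving out clone #1 moved the Otx2 ratio from -1.94 to -2.50 and leaving out clone #9 moved it to -1.37, and for Fgf5, with dim clones, the ratio of -1.90 became -1.21 and -2.59. The Foxd3 ratio of HoxA9-Ct ES to parental ES, uncalled at 0.03, turned to -0.035 with scaling to the median. Over all values of single genes under the alternatives, those given above included, 226 kept their direction and their side of the threshold. A further 12 lost a call, 5 gained one, 1 reversed and 8 moved by more than the spread between the clones. These 8 were the Otx2 and Fgf5 ratios with a clone left out. The cause was not tested. Every gene had 1 probe, so averaging probes changed nothing by construction. Signal over background limits Fgf5. No paired analysis was possible because replicate numbers were not shared between groups of more than 1 array.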
